A study of Mus musculus with 4 samples.

Results

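The genes described here encode 10 histone lysine methyltransferases, 6 that act on lysine 4 of histone H3 (H3K4) and 4 that act on lysine 9 (H3K9). They were taken by symbol from the 55401 gene identifiers of the count data, and all 10 were found once and were counted deeply enough to be tested. The study removed NSD1, a methyltransferase of lysine 36 of histone H3, from B cells and sequenced RNA of B220+ B cells sorted from the spleen, to look for the mechanism behind a larger B1 cell population. The control genotype, NSD1 B WT, is Mb1-Cre+ NSD1+/+, and the conditional knockout, NSD1 B KO, is Mb1-Cre+ NSD1fl/fl, with 2 libraries each. Both genotypes carry Mb1-Cre, in which the Cd79a promoter drives Cre recombinase in the B lineage, so the controls have Cre without floxed alleles. The strain was C57BL/6J and the controls were littermates. The age and sex of the mice behind each library are not given in the labels, nor whether the libraries of a genotype came from separate mice, so the p-values measure only the spread between these libraries. For the experiments in general, the study's methods describe young adult mice of both sexes.

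H3K4 methylation marks active promoters and enhancers. It is placed by the MLL and SET1 enzymes, which work in large complexes with the shared subunits WDR5, RBBP5, ASH2L and DPY30. KMT2A and KMT2B form one pair of related enzymes that act at promoters and developmental genes, KMT2C and KMT2D form a second pair that monomethylates H3K4 at enhancers, and SETD1A and SETD1B form the remaining pair, which trimethylates H3K4 at active promoters. H3K9 methylation marks silent chromatin. EHMT1 (GLP) and EHMT2 (G9a) act together as a heterodimer that dimethylates H3K9 in euchromatin. SETDB1 trimethylates H3K9 at endogenous retroviruses, where zinc finger proteins recruit it through TRIM28, and SUV39H1 trimethylates H3K9 in pericentromeric heterochromatin, where HP1 proteins bind the mark. In B lineage cells both marks contribute to lineage gene control, and H3K9 methylation contributes to the silencing of retroviral elements.

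The counts on genes ranged from 6769118 to 7566834 per library. Levels are given as CPM, the counts of a gene scaled to a common library total, after TMM scaling, which corrects each library for its composition. Differences are log2 fold changes of NSD1 B KO relative to NSD1 B WT with their standard errors (SE), from edgeR's quasi-likelihood test fitted to 11657 genes. A gene was called when its Benjamini-Hochberg adjusted p was below 0.05 and its fold change above 1.2. The targeted gene, Nsd1, had 497 and 480 counts in the control libraries and 284 and 280 in NSD1 B KO, a log2 fold change of -0.74 (SE 0.11, adjusted p = 8.22e-08 in edgeR). The counts cover the whole gene, not the floxed exons alone. All 8 B cell markers were counted in every library, with sums of 11200 to 12800 CPM, and 5 of them were called lower in NSD1 B KO and 1 higher. Markers of other cells differed as well. The erythroid markers summed to 39.6 and 35.5 CPM in NSD1 B WT and to 1940 and 1690 CPM in NSD1 B KO, with all 5 tested called higher. The 8 myeloid markers summed to 4560 and 4670 CPM against 6070 and 5730 CPM (5 called higher, 2 lower, none of them at 0 in all libraries, Csf3r with 1 count in total). The 8 T cell markers summed to 67.4 and 69.0 CPM against 79.3 and 75.6 CPM (2 called higher, 1 lower), and Cd4, Cd8a and Cd28 were at 0 in all. The 6 plasmacytoid dendritic cell and NK cell markers summed to 4.75 and 3.83 CPM against 6.52 and 3.56 CPM (1 called in each direction), with Siglech, Klk1 and Ncr1 at 0. The 5 plasma cell markers summed to 231 and 216 CPM against 169 and 174 CPM (1 called higher, 2 lower), with Sdc1 and Tnfrsf17 at 0. Of 10 proliferation markers, 6 were called lower and 9 had 0 counts in both NSD1 B KO libraries, Pcna being the exception. Among those 9, Bub1 and Mcm2 were at 0 in all libraries, and Mcm5 had only 1 and 2 counts in NSD1 B WT. Whether these cells and states play a part in the results below was not tested. In bulk RNA, fewer cells of a type and less RNA per cell cannot be told apart.

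All 4 H3K9 methyltransferases were lower in NSD1 B KO, whereas 4 of the 6 H3K4 methyltransferases did not pass the test. The 4 H3K9 genes together had 96.4 and 93.0 CPM in NSD1 B WT and 10.1 and 16.6 CPM in NSD1 B KO. The 6 H3K4 genes together had 142 and 143 CPM in NSD1 B WT and 127 and 129 CPM in NSD1 B KO. Of the 10 genes, 6 were called lower (Kmt2d, Setd1a, Ehmt1, Ehmt2, Setdb1 and Suv39h1) and 0 were called higher. Across all tested genes 41.1% were called lower and 37.1% higher. Among the 8062 genes within the range of mean expression of these 10, 42.8% were called lower and 36.4% higher. The call of a lower level was thus common in these data, and a single such call does not set a gene apart. The median log2 fold change of the 10 genes was -1.33, that of the 4 H3K9 genes -3.58 and that of the 6 H3K4 genes -0.10. These medians include Ehmt2, Suv39h1 and Setd1a, which passed the expression filter through NSD1 B WT, where they were high. With at least 1 CPM required in all 4 libraries, 7 of the 10 genes were tested, 3 were called lower and the median was -0.15. The median over all tested genes was also -0.10. The count of 0 called higher was also 0 at an unadjusted p below 0.05, and 0 with DESeq2 and with limma-voom.

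**Figure D1:**
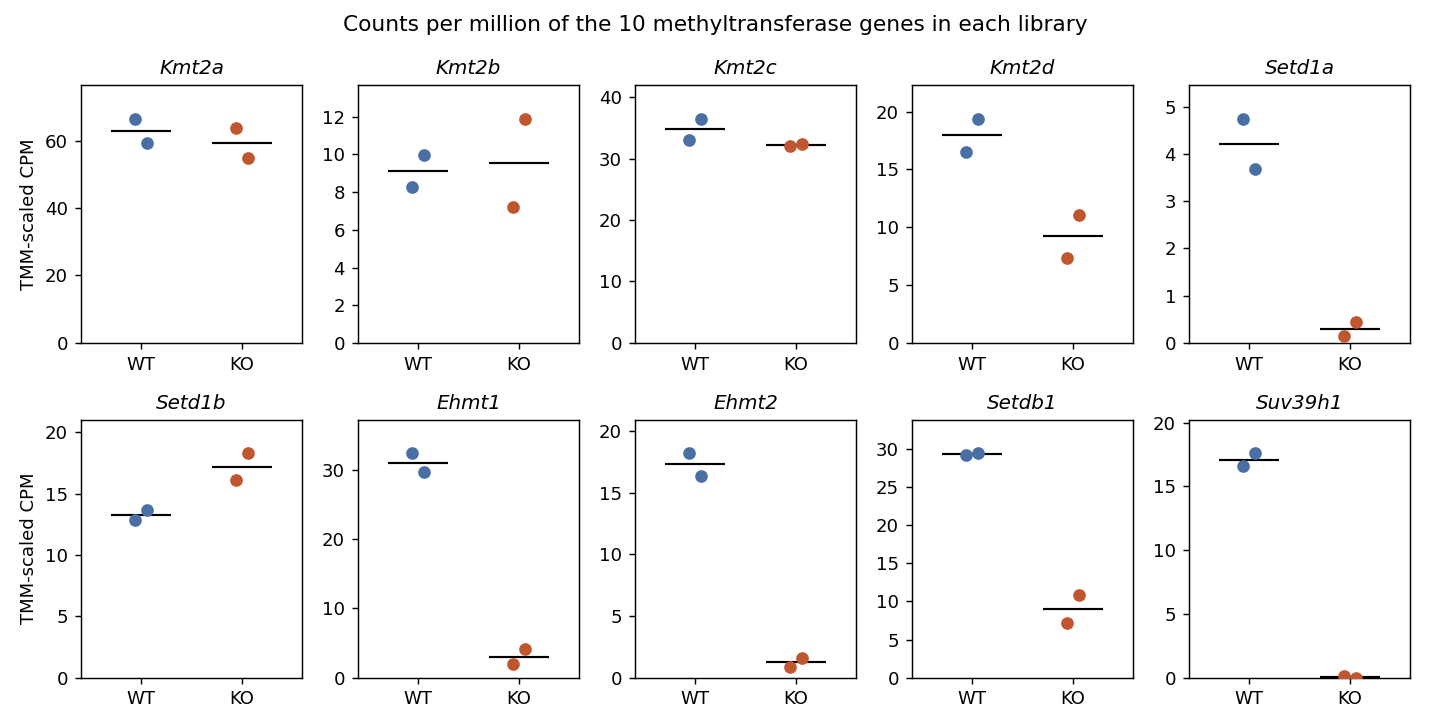
TMM-scaled CPM of the 10 methyltransferase genes, with 1 point per library, coloured by genotype. The NSD1 B KO points of Ehmt1, Ehmt2, Setdb1 and Suv39h1 lie well below both NSD1 B WT points, and those of Kmt2a and Kmt2b overlap with them.

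The regions before the transcription starts of the H3K9 genes are shown because these genes fell together. Each sequence holds the 250 bases upstream of the RefSeq start (GRCm38.p6), written 5′ to 3′ on the strand of the gene, with every match to a searched motif in capitals. The motifs, searched on both strands, were the GC box GGGCGG (found in 32.7% of 32851 RefSeq promoters over the same length), the CCAAT box CCAAT (33.8%), the TATA box TATAAA (12.4%), the E-box CACGTG (6.0%), the ETS site CCGGAAG (6.9%), the E2F site TTTNGCGC (1.1%), the NRF1 core CGCATGCG (1.5%) and the YY1 core ATGGCGG (2.2%). No matches overlap in these 4 sequences. They are Ehmt1 (chr2:24919610-24919859, minus strand), Ehmt2 (chr17:34898224-34898473, plus strand), Setdb1 (chr3:95357203-95357452, minus strand) and Suv39h1 (chrX:8074761-8075010, minus strand).
Ehmt1: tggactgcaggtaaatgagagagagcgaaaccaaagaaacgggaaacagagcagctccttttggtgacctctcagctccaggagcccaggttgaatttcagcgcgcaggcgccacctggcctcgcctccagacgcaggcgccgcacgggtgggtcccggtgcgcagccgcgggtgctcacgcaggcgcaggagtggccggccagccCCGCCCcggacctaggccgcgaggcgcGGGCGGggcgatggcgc
Ehmt2: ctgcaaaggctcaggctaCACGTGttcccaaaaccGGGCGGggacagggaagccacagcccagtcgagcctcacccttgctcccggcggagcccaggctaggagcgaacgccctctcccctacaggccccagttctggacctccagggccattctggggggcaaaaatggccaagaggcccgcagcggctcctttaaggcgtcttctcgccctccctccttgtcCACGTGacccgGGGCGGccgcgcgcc
Setdb1: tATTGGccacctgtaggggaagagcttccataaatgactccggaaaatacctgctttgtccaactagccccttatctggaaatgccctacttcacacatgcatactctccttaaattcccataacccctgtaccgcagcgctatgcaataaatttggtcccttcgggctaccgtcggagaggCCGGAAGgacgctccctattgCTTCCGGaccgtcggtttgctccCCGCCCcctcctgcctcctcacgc
Suv39h1: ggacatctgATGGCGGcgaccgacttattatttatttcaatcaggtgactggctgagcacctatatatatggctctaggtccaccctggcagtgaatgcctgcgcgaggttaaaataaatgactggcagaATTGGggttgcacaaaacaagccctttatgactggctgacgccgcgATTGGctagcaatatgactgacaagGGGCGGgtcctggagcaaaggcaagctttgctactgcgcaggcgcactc

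All 4 hold a GC box, as do 32.7% of all promoters, and none holds a TATA box. The GC boxes begin 44 and 17 bases before the start of Ehmt1, 215 and 15 before that of Ehmt2, 24 before that of Setdb1 and 49 before that of Suv39h1. Ehmt2 also has E-boxes 232 and 26 bases before its start, Setdb1 has ETS sites at 68 and 47 and a CCAAT box at 249, and Suv39h1 has CCAAT boxes at 120 and 74 and a YY1 core at 241. No motif beyond the GC box was common to the 4. CpG dinucleotides numbered 26 for Ehmt1, 18 for Ehmt2, 13 for Setdb1 and 11 for Suv39h1, against a median of 6 over all promoters. The H3K4 genes with an entry had 29 for Kmt2a, 48 for Kmt2c, 26 for Kmt2d and 25 for Setd1a, so a high CpG number was not particular to the H3K9 genes. Among the H3K4 genes with a RefSeq promoter entry, Kmt2a had 4 GC boxes, Kmt2c 12 and Kmt2d 4, and Setd1a had no match to any of the motifs. Promoters matched for 8 of the 10 genes, and those of Kmt2b and Setd1b were not analysed here. A match is a description of letters and not a measured binding site.

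Ehmt1 encodes GLP and lies on chromosome 2 from 24789928 to 24919614 on the minus strand (mm10, GENCODE M21). It had 232 and 217 counts in the control libraries and 14 and 28 in NSD1 B KO, or 32.4 and 29.7 CPM against 1.94 and 4.16 CPM. The genotypes did not overlap, and the NSD1 B KO mean was 10.2-fold lower. Its log2 fold change was -3.35 (SE 0.25, adjusted p = 4.95e-17 in edgeR). Across the tested genes, 15.4% fell at least as far as Ehmt1.

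Ehmt2 encodes G9a, the partner of GLP, and lies on chromosome 17 from 34898469 to 34914052 on the plus strand. Its counts were 130 and 120 in NSD1 B WT and 6 and 11 in NSD1 B KO, which gave 18.2 and 16.4 CPM against 0.833 and 1.63 CPM. Both NSD1 B KO libraries were far below both NSD1 B WT libraries, and the level was 14.0-fold lower. The log2 fold change was -3.80 (SE 0.34, adjusted p = 2.67e-14 in edgeR), and 14.5% of the tested genes fell at least as far. The transcripts of both subunits of the heterodimer were thus lower. Without scaling by length, Ehmt1 made up 64.1% and 64.4% of the CPM of the pair in NSD1 B WT and 70.0% and 71.8% in NSD1 B KO, where the pair as a whole dropped from 50.6 and 46.0 CPM to 2.78 and 5.79 CPM.

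Setdb1, on chromosome 3 from 95323525 to 95357202 on the minus strand, encodes the enzyme that silences endogenous retroviruses. It had 209 and 215 counts in the control libraries and 52 and 73 in NSD1 B KO, or 29.2 and 29.4 CPM against 7.22 and 10.8 CPM. It fell by the smallest factor of the 4 H3K9 genes, 3.25-fold, with a log2 fold change of -1.70 (SE 0.20, adjusted p = 7.13e-11 in edgeR). The genotypes did not overlap, and Setdb1 held most of the H3K9 counts that were left in NSD1 B KO. Its exons share 75 bases with Cers2 on the opposite strand and 249 bases with Gm37500, and the strand setting of the counting is not given in the sources used here.

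Suv39h1, on chromosome X from 8061171 to 8074760 on the minus strand, encodes the heterochromatin enzyme. It was counted 119 and 129 times in the control libraries (16.6 and 17.6 CPM) and 1 and 0 times in NSD1 B KO. The single count was 0.139 CPM in replicate 1, and 0 counts in replicate 2 allow up to 0.445 CPM at a limit of 3 counts. The ratio of NSD1 B WT to NSD1 B KO was 239, with a 95% counting interval of 42.5 to 9470, and the adjusted p in edgeR was 2.71e-17. Suv39h1 thus went from more than 100 counts per library to the edge of detection. By fitted log2 fold change (-7.59), 9.08% of the tested genes fell at least as far as Suv39h1. A stretch of 767 bases of its exons (14.55%, the share of exon bases that any other gene overlaps) lies opposite the antisense gene Gm14820, which had 0 counts in all libraries. Suv39h1 is X-linked, and the libraries also differed in other sex-linked genes. Xist, the RNA that silences an X chromosome, had 47 and 62 counts in the control libraries and 1 and 2 in NSD1 B KO, and the Y-linked Ddx3y had 624 and 641 counts against 914 and 875. Whether the make-up of the samples by sex bears on Suv39h1 was not tested. Its paralogue Suv39h2 had 0 counts in all 4 libraries, a gene named here after its values were seen.

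**Figure D2:**
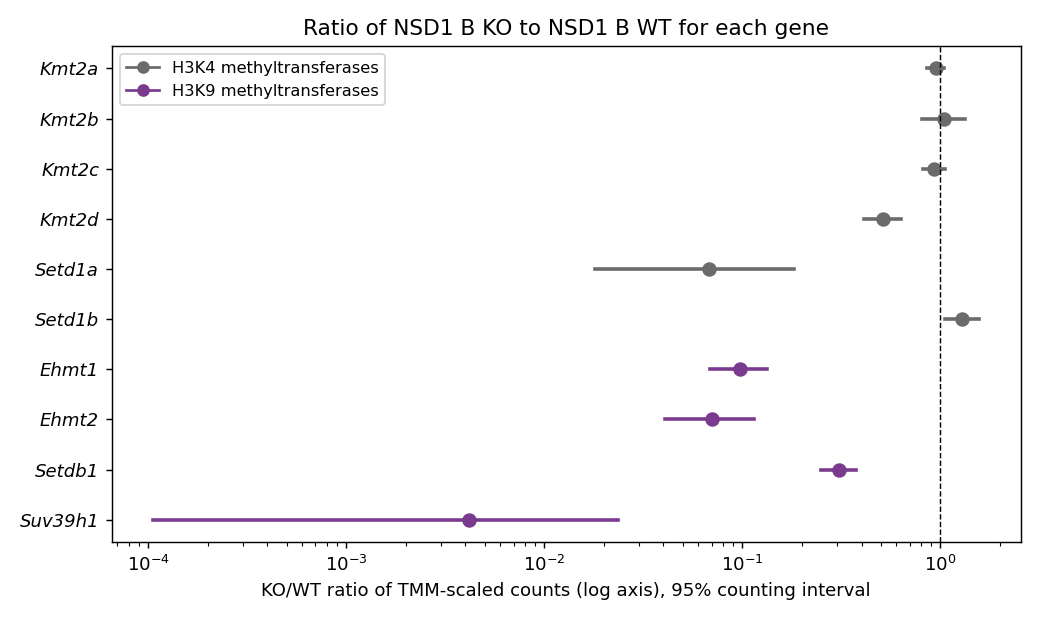
Ratio of NSD1 B KO to NSD1 B WT for each of the 10 genes (log axis), from TMM-scaled counts summed over the 2 libraries of a genotype, with 95% counting intervals that leave out the spread between libraries. Ehmt1, Ehmt2, Setdb1, Suv39h1, Setd1a and Kmt2d lie below 1, and Kmt2a, Kmt2b and Kmt2c lie near it.

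The H3K4 genes behaved differently from pair to pair. In the KMT2A and KMT2B pair, both genes overlapped between genotypes. Kmt2a, on chromosome 9 from 44803355 to 44881296 on the minus strand, encodes the MLL1 protein that acts at Hox and other developmental genes. It had 66.5 and 59.3 CPM in NSD1 B WT and 63.7 and 54.8 CPM in NSD1 B KO, with a log2 fold change of -0.08 (SE 0.11, adjusted p = 0.48 in edgeR). Kmt2b, on chromosome 7 from 30568858 to 30588726 on the minus strand, encodes its close relative MLL2. It had 8.25 and 9.97 CPM against 7.22 and 11.9 CPM, a log2 fold change of 0.06 (SE 0.26, adjusted p = 0.838 in edgeR). The NSD1 B KO libraries of Kmt2b spread more widely than the genotypes differed, and the sign of its fold change depended on the scaling, with -0.01 under library size alone. On the same scale, Kmt2a made up 82.2% to 89.8% of the CPM of the pair in all 4 libraries.

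In the enhancer pair, the genes parted. Kmt2c, the gene of the MLL3 enzyme, on chromosome 5 from 25271798 to 25498783 on the minus strand, had 33.0 and 36.5 CPM in NSD1 B WT and 32.1 and 32.4 CPM in NSD1 B KO. Both NSD1 B KO libraries were below both NSD1 B WT libraries, but the difference did not pass the test (log2 fold change -0.11, SE 0.14, adjusted p = 0.471 in edgeR). Kmt2d, on chromosome 15 from 98831669 to 98871204 on the minus strand, encodes an enzyme that shapes germinal centre B cells and is often mutated in lymphoma. It had 118 and 142 counts in the control libraries and 53 and 75 in NSD1 B KO, or 16.5 and 19.4 CPM against 7.36 and 11.1 CPM. It was 1.95-fold lower without overlap (log2 fold change -0.96, SE 0.22, adjusted p = 0.000131 in edgeR). Kmt2c accounted for 66.7% and 65.3% of the CPM of the pair in NSD1 B WT and for 81.3% and 74.4% in NSD1 B KO.

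In the SET1 pair, one gene fell and the other did not. Setd1a, on chromosome 7 from 127776670 to 127800122 on the plus strand, had 34 and 27 counts in the control libraries and 1 and 3 in NSD1 B KO, or 4.75 and 3.69 CPM against 0.139 and 0.445 CPM. The ratio of NSD1 B WT to NSD1 B KO was 14.7 (95% counting interval 5.45 to 55.6), and the log2 fold change was -3.80 (SE 0.60, adjusted p = 1.21e-07 in edgeR). Of the tested genes, 14.5% fell at least as far. Setd1a had the fewest counts of the 10 genes in NSD1 B WT, so the size of the fall rests on few reads. In addition, 3523 bases of Setd1a exon are also annotated to Gm49388 on the same strand, which had 0 counts in all libraries. Reads in this stretch could have been set aside as ambiguous, and the counts of Setd1a are therefore uncertain.

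Setd1b, on chromosome 5 from 123142193 to 123168629 on the plus strand, was the only one of the 10 genes with both NSD1 B KO libraries above both NSD1 B WT libraries. It had 92 and 100 counts in the control libraries and 116 and 123 in NSD1 B KO, or 12.9 and 13.7 CPM against 16.1 and 18.3 CPM. The difference did not pass the test (log2 fold change 0.37, SE 0.20, adjusted p = 0.0842 in edgeR). When the dependence on GC content and exon length was removed, the log2 fold change became 0.67 with an adjusted p of 0.00221 in edgeR and Setd1b was called higher, while the median of all genes moved to 0.10. The adjusted p ranged from 0.00221 to 0.257 over the alternatives. Setd1a made up 27.0% and 21.3% of the CPM of the pair in NSD1 B WT and 0.855% and 2.38% in NSD1 B KO. The pair as a whole stayed at 17.6 and 17.4 CPM against 16.2 and 18.7 CPM, with overlap between genotypes.

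Counted by the libraries rather than by the test, 7 of the 10 genes had both NSD1 B KO libraries below both NSD1 B WT libraries, 1 had both above, and 2 overlapped. Of all tested genes, 46.2% had both NSD1 B KO libraries below and 41.8% had both above. The H3K9 genes held 40.5% and 39.5% of the counts of the 10 genes in NSD1 B WT and 7.41% and 11.4% in NSD1 B KO. Their summed level was 94.7 ± 2.40 CPM (SD, n = 2) in NSD1 B WT and 13.4 ± 4.59 CPM (SD, n = 2) in NSD1 B KO, which is 7.08-fold lower. The summed level of the H3K4 genes was 142 ± 0.447 CPM (SD, n = 2) in NSD1 B WT and 128 ± 1.62 CPM (SD, n = 2) in NSD1 B KO, which is 1.11-fold lower. These sums were not tested.

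**Figure D3:**
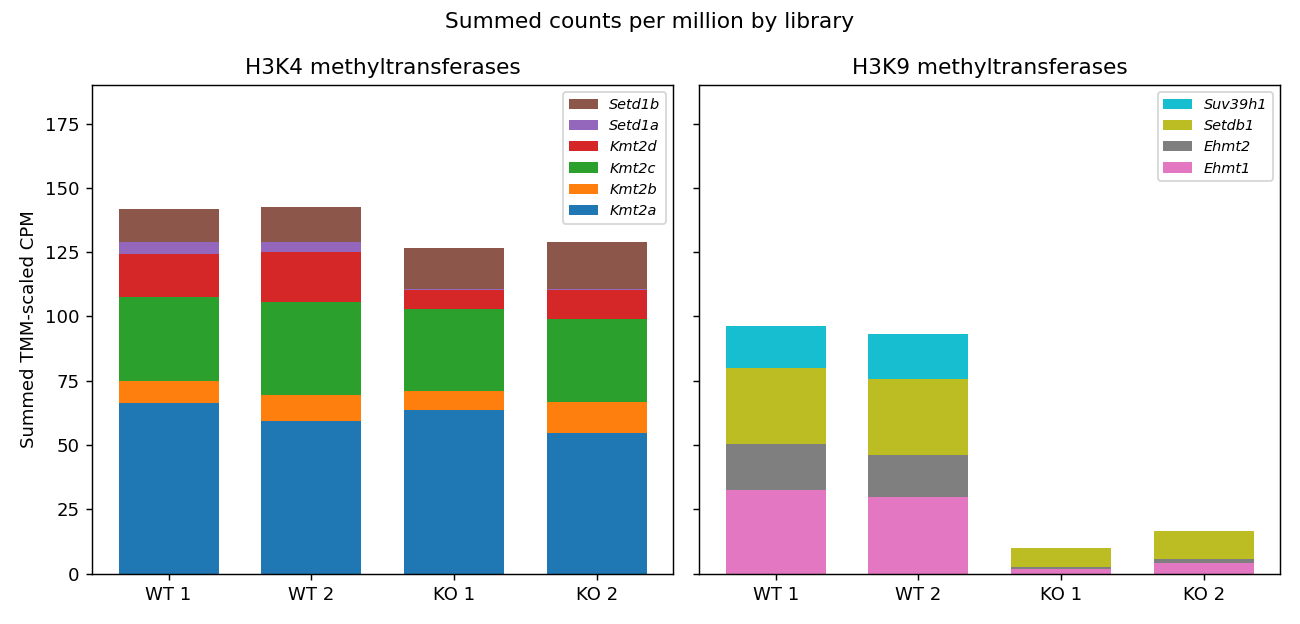
Summed TMM-scaled CPM of the 6 H3K4 genes and of the 4 H3K9 genes in each of the 4 libraries. The H3K4 sums lie between 127 and 143 CPM, whereas the H3K9 sums drop from 93.0 and 96.4 CPM in NSD1 B WT to 10.1 and 16.6 CPM in NSD1 B KO.

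The 2 NSD1 B KO libraries differed from each other in several of these genes. The CPM was higher in replicate 2 than in replicate 1 for 8 of the 10 genes in NSD1 B KO and for 6 of 10 in NSD1 B WT, against 48.3% and 46.1% of all tested genes. In NSD1 B KO the 95% counting interval of the ratio of replicate 2 to replicate 1 left out 1 for 5 genes. Those ratios were 0.86 for Kmt2a, 1.65 for Kmt2b, 1.51 for Kmt2d, 2.14 for Ehmt1 and 1.5 for Setdb1. In NSD1 B WT this was so for 0 of 10 genes. Among the 8062 tested genes in the same range of mean expression, the interval left out 1 for 16.8% in NSD1 B KO and 11.8% in NSD1 B WT. These 5 genes thus varied between the NSD1 B KO libraries beyond counting error, which is the only spread that the interval covers. The distance between genotypes was wider than that between libraries in Ehmt1, Setdb1 and Kmt2d, but not in Kmt2a and Kmt2b.

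To compare the genes with one another, CPM was divided by the exon length in kb. In NSD1 B WT the order of mean level per kb was Setdb1 (4.27), Ehmt1 (3.82), Kmt2a (3.77), Suv39h1 (3.25), Ehmt2 (3.15), Kmt2c (1.71), Setd1b (1.10), Kmt2b (0.949), Kmt2d (0.901) and Setd1a (0.621). Neighbours overlapped in their libraries for Ehmt1 and Kmt2a, for Suv39h1 and Ehmt2, and for Kmt2b and Kmt2d. All 4 H3K9 genes were among the upper 5 in this order. The place of Setd1a is uncertain in both genotypes, because 52.27% of its exon bases are shared with other genes and reads there could have been set aside. In NSD1 B KO the order was Kmt2a (3.55), Kmt2c (1.59), Setd1b (1.42), Setdb1 (1.32), Kmt2b (0.995), Kmt2d (0.464), Ehmt1 (0.376), Ehmt2 (0.225), Setd1a (0.043) and Suv39h1 (0.0132) CPM per kb. Setdb1 was then the only H3K9 gene above Kmt2d, and it overlapped with both of its neighbours. Kmt2d and Ehmt1, Ehmt1 and Ehmt2, and Setd1a and Suv39h1 also overlapped.

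**Figure D4:**
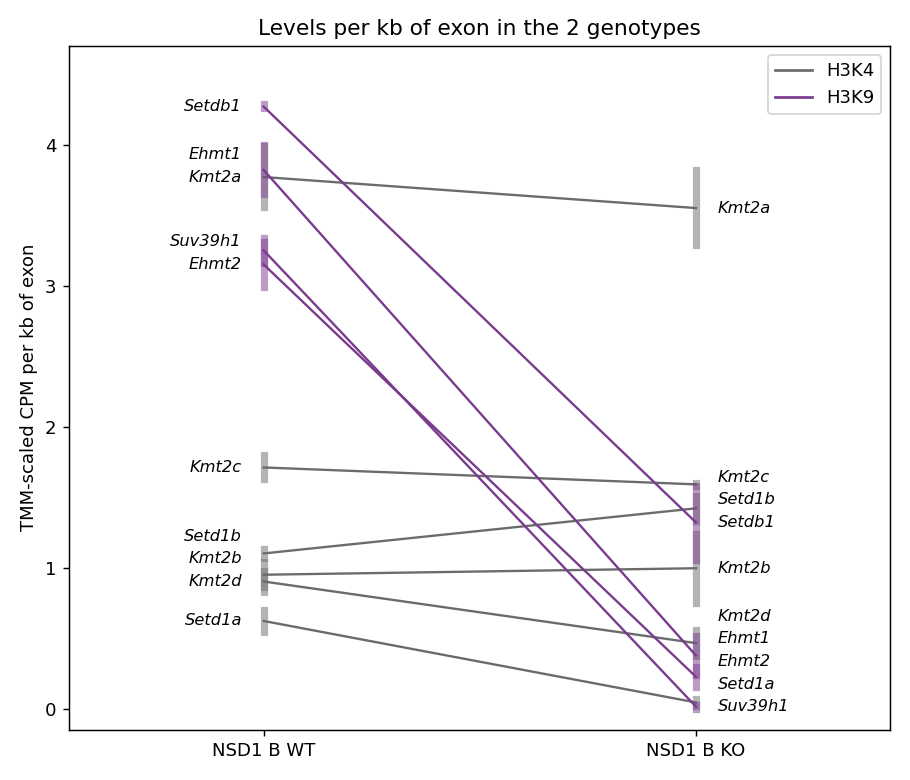
CPM per kb of exon of the 10 genes in each genotype, with the spread of its 2 libraries. Kmt2a stays near 3.77 and 3.55 CPM per kb, while all 4 H3K9 genes are lower in NSD1 B KO. There Setdb1 is at rank 4 of the 10 genes, and Suv39h1 reaches 0.0132 CPM per kb on average.

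The genes called lower tended to have the shorter exons, and their base composition did not set them apart. The exons summed to 8116 bases for Ehmt1, 5489 for Ehmt2, 6853 for Setdb1, 5270 for Suv39h1, 6795 for Setd1a and 19931 for Kmt2d. The other 4 genes had 16670 (Kmt2a), 9596 (Kmt2b), 20291 (Kmt2c) and 12068 (Setd1b) bases. All 5 of the shortest genes were called lower, and Kmt2d was the exception among the long ones. The GC content of the longest transcript was 48.3% to 60.8% in the 6 genes called lower and 47.6% to 59.1% in the other 4, so the ranges overlapped. The genes lie on 8 chromosomes, with Kmt2b and Setd1a both on chromosome 7 and Kmt2c and Setd1b both on chromosome 5.

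The other genes of H3K4 and H3K9 methylation were called in both directions, and their difference from the 10 enzymes was not tested. Of 56 such genes in 6 lists, 48 were tested, of which 24 were called higher and 13 lower, and their median log2 fold change was 0.28. The corresponding share was 50% called higher and 27.1% lower, against 37.1% and 41.1% of all tested genes. Of the 4 core subunits of the H3K4 complexes, 3 were called higher and 0 lower (median log2 fold change 0.74). Ash2l rose from 4.47 and 3.14 CPM to 17.2 and 12.8 CPM, a log2 fold change of 1.98 (SE 0.28, adjusted p = 1.36e-08 in edgeR). Rbbp5 rose from 10.3 and 9.97 CPM to 22.1 and 20.3 CPM (log2 fold change 1.06, SE 0.20). Both encode subunits that the catalytic SET domain needs for full activity.

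Of 13 subunits that belong to single MLL or SET1 complexes, 11 were tested, with 6 called higher and 2 lower (median 1.11). Tasp1, the protease that cleaves KMT2A and KMT2B into their active fragments, had 0 counts in the control libraries and 182 and 141 in the knockout libraries, which is at least 112-fold higher at a limit of 3 counts over the group (adjusted p = 1.1e-19 in edgeR). Hcfc1, a cofactor of the MLL1, MLL2 and SET1 complexes, had 17.5 and 26.2 CPM in NSD1 B WT and 66.1 and 75.4 CPM in NSD1 B KO, a log2 fold change of 1.69 (SE 0.14). Its paralogue Hcfc2 fell from 7.97 and 11.3 CPM to 4.44 and 6.98 CPM (log2 fold change -0.76, SE 0.29, adjusted p = 0.0146 in edgeR, with 0.0018 to 0.313 over the alternatives). The call of Hcfc2 was lost with DESeq2 (adjusted p = 0.128), with limma-voom (adjusted p = 0.0865), without NSD1 B WT replicate 2 (log2 fold change -0.46, adjusted p = 0.313 in edgeR) and without NSD1 B KO replicate 1 (-0.47, adjusted p = 0.162 in edgeR). Paxip1, a subunit of the KMT2C and KMT2D complexes, had 54 and 50 counts in the control libraries and 0 in both NSD1 B KO libraries, at least 33.4-fold lower (adjusted p = 3.52e-12 in edgeR). Of the other listed subunits of these complexes, named after their values were seen, Kdm6a rose from 15.7 and 16.3 CPM to 39.8 and 28.8 CPM (log2 fold change 1.11, SE 0.17, adjusted p = 7.32e-08 in edgeR) and Ncoa6 did not pass the test (log2 fold change 0.29, SE 0.16).

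Other enzymes for these residues moved both ways. Of 10 genes listed, 6 were tested, with 3 called higher and 2 lower (median 0.68). Setd7, an H3K4 monomethyltransferase that also acts on other proteins, rose from 9.37 and 7.79 CPM to 31.9 and 31.2 CPM (log2 fold change 1.88, SE 0.19). Smyd2, which methylates p53 and histones, went from 169 and 172 counts to 0 in both NSD1 B KO libraries, at least 109-fold lower (adjusted p = 6.77e-20 in edgeR). Prdm2, an H3K9 methyltransferase, fell from 22.1 and 24.0 CPM to 12.6 and 12.5 CPM (log2 fold change -0.88, SE 0.19). Setdb2, another H3K9 methyltransferase, lies below the expression minimum for named genes and was named after its values were seen. It rose from 7 and 1 counts to 63 and 67 (log2 fold change 4.03, SE 0.47, adjusted p = 9.31e-11 in edgeR).

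Among 13 partners of the H3K9 methyltransferases, 12 were tested, with 5 called higher and 5 lower (median 0.10). Trim28, which brings SETDB1 to its targets, had 399 and 422 counts in the control libraries and 1 and 5 in NSD1 B KO, a log2 fold change of -6.98 (SE 0.29, adjusted p = 3.73e-26 in edgeR). Cbx5, the HP1 alpha gene, fell from 21.8 and 23.6 CPM to 1.25 and 5.49 CPM (log2 fold change -2.77, SE 0.29). Cbx1, the HP1 beta gene, rose from 49.3 and 46.2 CPM to 101 and 91.8 CPM (log2 fold change 1.01, SE 0.10). The HP1 proteins bind methylated H3K9, and these family members moved in opposite directions. Morc2a, a chromatin compaction ATPase recruited by the HUSH silencing complex, had 0 counts in the control libraries and 77 and 64 in the knockout libraries, which is at least 48.8-fold higher (adjusted p = 3.77e-14 in edgeR). Tasor2 rose from 34.4 and 28 CPM to 80.5 and 76.9 CPM (log2 fold change 1.34, SE 0.12). The listed subunits of HUSH itself, named after their values were seen, did not rise. Tasor fell from 27.5 and 30.7 CPM to 5.83 and 4.6 CPM (log2 fold change -2.47, SE 0.21). Pphln1 fell from 79.3 and 70.4 CPM to 30.4 and 22.4 CPM (-1.5, SE 0.13), and Mphosph8 did not pass the test (0.1, SE 0.15).

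The demethylases that remove these marks also varied. Of 6 H3K4 demethylases, 2 were called higher and 1 lower (median -0.01). The Y-linked Kdm5d rose from 12.4 and 10.5 CPM to 50.7 and 44.5 CPM (log2 fold change 2.05, SE 0.16), beside the higher Ddx3y given above. Kdm5a fell slightly, from 98.8 and 105 CPM to 84.9 and 78.4 CPM (log2 fold change -0.32, SE 0.10, adjusted p = 0.00257 in edgeR, with 8.92e-06 to 0.0499 over the alternatives). Without NSD1 B WT replicate 2 or without NSD1 B KO replicate 2 its log2 fold change was -0.25, which is under the fold threshold, and the call was lost. Of 10 H3K9 demethylases, 9 were tested, with 5 called higher and 3 lower (median 0.66). Kdm4c rose from 11 and 10.5 CPM to 66.9 and 64.9 CPM (log2 fold change 2.61, SE 0.15), and Kdm3a from 19.2 and 25.0 CPM to 48.9 and 43.8 CPM (1.07, SE 0.14). Kdm7a fell from 45.1 and 45 CPM to 9.16 and 12.5 CPM (log2 fold change -2.06, SE 0.17), and Kdm3b from 61.9 and 54.2 CPM to 25.0 and 21.7 CPM (-1.31, SE 0.13). Transcripts of enzymes that add H3K9 methylation, with Setdb2 among them, and of enzymes that remove it thus moved in both directions.

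**Figure D5:**
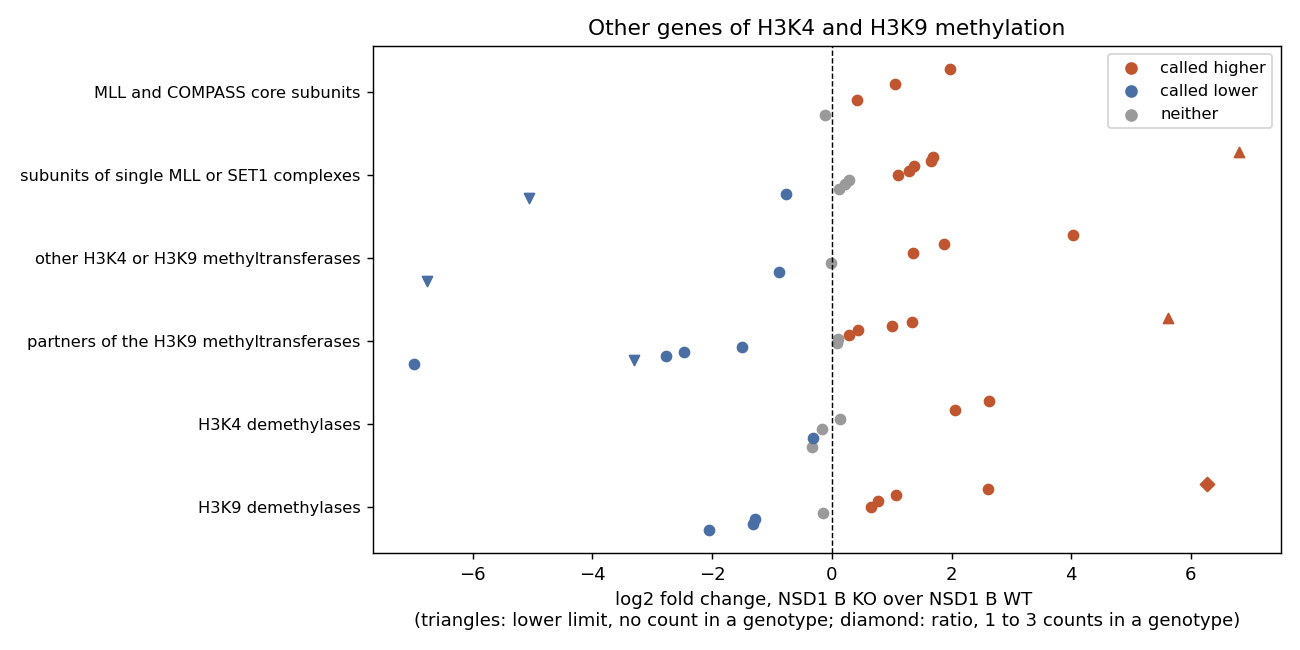
Log2 fold change (NSD1 B KO relative to NSD1 B WT) for the tested genes of 6 lists around H3K4 and H3K9 methylation, coloured by call. Triangles give lower limits for genes with 0 counts in a genotype and the diamond a ratio of counts, and the core subunits hold 3 genes called higher and 0 called lower.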

How the data were processed

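RNA of B220+ B cells was measured in 4 libraries. The authors mapped paired-end reads to mm10 with Bowtie2, which does not split reads across introns, so reads over exon junctions can be lost. Per the file contents, the deposited values are raw counts, whole numbers for each gene. How reads were assigned to genes (program, strandedness, gene models) is not given in the sources used here, and FPKM values from Cufflinks were not used here. Lines that name no gene (58.0% to 60.0% of the counted reads) were left out of library sizes.

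Genotypes were taken from the labels. Genes were kept by filterByExpr (minimum count 10, minimum total 15), scaled by TMM and tested with the quasi-likelihood test of edgeR 4.0.16 in R 4.3.3 on all genes, with Benjamini-Hochberg adjustment. The SE is the size of the log2 fold change divided by the square root of its F statistic. Intervals cover counting error only (95%), and a gene at 0 in both libraries of a genotype was set at 3 counts, equal to 0.207 CPM for the controls and 0.215 CPM for the knockout. Positions, exon lengths and overlaps came from GENCODE M21, which matched 99.5% of the identifiers, and promoters from RefSeq. The 10 genes and the lists were chosen with earlier results of these data known. The text names all 10 genes, Nsd1, and from each list the 2 largest called increases and decreases whose mean log2 CPM reached 3, and genes at 0 in a genotype with at least 50 counts in the other. Alternatives were other scalings, filters and thresholds, DESeq2 1.42.0, limma-voom (limma 3.58.1), removal of a trend with length and GC, the replicate number as a block, 395 immunoglobulin genes left out, and each library left out in turn. The procedure was tested on simulated data. The value of 1 marker gene is not reported here.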

Additional observations from a re-analysis of the deposited data

How the results depend on the processing

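Of 16 alternatives, all but 2 gave 6 genes called lower among the 10. With a filter of at least 1 CPM in all 4 libraries, which removes genes that fell to near 0, 7 of the 10 genes were tested. Of these 7, 3 were called lower, and their median log2 fold change was -0.15. Over all 8334 genes tested with this filter, 2855 were called higher and 2991 lower. With the trend with exon length and GC content removed, 1 of the 10 (Setd1b) was called higher, and 1 also with this trend removed and the replicate number as a block. With the replicate block alone, 6 were called lower and 0 higher, with a median of -1.34. The replicate numbers do not pair the samples by the labels, and same-numbered libraries deviated together with a correlation of 0.0645. Leaving out each library gave medians of -1.65 (without NSD1 B KO replicate 2) to -1.06 (without NSD1 B KO replicate 1). Without these libraries, the log2 fold change was -3.98 and -2.90 for Ehmt1 and -4.76 and -3.20 for Setd1a. In the same order, it was -8.5 and -6.23 for Trim28 and -4.16 and -2.05 for Cbx5. Kmt2d ranged from -1.28 to -0.69 and Kmt2b from -0.33 to 0.38 as single libraries were left out. With thresholds of 1e-05 on adjusted p and 0.5 on log2 fold change, 5 were called lower, without Kmt2d, and Prdm2, Hcfc2 and Kdm5a were not called. Depth limits Setd1a and Suv39h1, which had 4 and 1 counts in NSD1 B KO in all.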
